A study of Mus musculus with 12 samples.

Results

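Foxp3 and 8 further genes known from regulatory T cells were followed through 4 groups of CD4+ T cells sorted from mouse Peyer's patches, which are lymphoid tissue in the wall of the small intestine. The 9 genes are Foxp3, Ikzf2, Ikzf4, Nrp1, Gpr83, Lrrc32, Capg, Tnfrsf18 and Swap70. They were taken by name, from probe sets annotated to 1 of these symbols alone. Each has 1 probe set on the array, and all 9 passed the filter on low values, out of 19937 genes on the array and 11240 genes tested.

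Regulatory T cells restrain other lymphocytes, and the transcription factor Foxp3 fixes their identity together with partners of the Ikaros family. On their surface they carry receptors such as neuropilin 1, GITR and the latent TGF-beta anchor GARP. T follicular helper (Tfh) cells are CD4+ T cells that enter B cell follicles, guided by the chemokine receptor CXCR5, and help B cells make antibody, partly through interleukin 21. In germinal centres, which Peyer's patches hold at all times, some regulatory T cells also carry CXCR5 and PD-1 and are called T follicular regulatory cells.

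The data are 12 Affymetrix gene arrays of mouse RNA, 3 in each group. All mice carried a bacterial artificial chromosome transgene, IL-21eGFP, in which green fluorescent protein (GFP) reports the interleukin 21 gene. The groups were GFP+ Tfh cells and GFP- Tfh cells, both CXCR5+PD1+ by title, and, without GFP, a CXCR5+PD1- and a CXCR5-PD1- gate. All were CD4+ cells negative for MHC class II and Epcam. The antibodies listed for the sort include none against a regulatory T cell protein. The labels give no age or strain background. Nothing in them ties the replicates to separate mice. By Xist, a marker of female cells, replicate 3 was female and replicates 1 and 2 were not, so replicate 3 came from other animals. A p-value here sets a difference against array-to-array spread, which between replicates 1 and 2 may be technical. Values are log2 expression, given per array or as mean ± SD (n = 3). Differences are in log2 units ± SE, with adjusted p from limma over all 11240 genes, and "rose" or "fell" is kept for an adjusted p under 0.05.

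The genes behind the sort did not separate all the gates named in the titles. Il21, which the reporter stands for, averaged 10.60 ± 0.31 in GFP+ Tfh and 9.96 ± 0.34 in GFP- Tfh, a difference of 0.63 ± 0.56 that did not pass (adjusted p = 0.824). The GFP+ arrays all lay above the GFP- Tfh arrays, with same-numbered pairs at 0.65, 0.58 and 0.67. That SE is drawn from all 4 groups, and Il21 had an SD of 1.11 in CXCR5+PD1- and 1.09 in CXCR5-PD1- cells. With the 2 Tfh groups fitted alone the Il21 difference did not pass either (limma adjusted p = 0.995). Of 24 alternatives 0 called it, the lowest adjusted p in limma being 0.611. Il21 in GFP- Tfh was 3.46 ± 0.56 above CXCR5+PD1- cells and 3.32 ± 0.56 above CXCR5-PD1- cells (adjusted p = 0.00464 and 0.00557). Cxcr5 averaged 8.95 ± 0.29 for GFP+ Tfh cells and 8.21 ± 0.36 for GFP- Tfh cells. In CXCR5+PD1- and CXCR5-PD1- cells it averaged 5.61 ± 0.37 and 5.71 ± 0.43. The CXCR5+PD1- cells thus had no more Cxcr5 RNA than the CXCR5-PD1- cells (difference -0.10 ± 0.26). In both of these gates Cxcr5 lay above the array median on 0 of 3 arrays, so low values are compared. Pdcd1 averaged 9.02 in GFP+ Tfh and 9.11 in GFP- Tfh, against 7.09 in CXCR5+PD1- and 6.87 in CXCR5-PD1- cells. It rose in both Tfh gates over both PD1- gates. The described sort yields both Tfh populations and CXCR5-PD1- cells but mentions no CXCR5+PD1- population, so how that group was gated is not known here, and its values are those of the arrays so titled. Characteristics of the GFP+ arrays call them CXCR5- and PD1-, against their titles, and all 12 arrays carry the cell type label of T follicular helper. Xist was at 10.7 to 11.3 on replicate 3 of each group and at 4.87 to 5.49 elsewhere, so replicate 3 was female in all 4 groups. GFP+ arrays strayed most from their group mean, with a root mean square deviation of 0.287 to 0.405 over all genes tested, against 0.163 to 0.204 on the other 9 arrays.

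**Figure D1:**
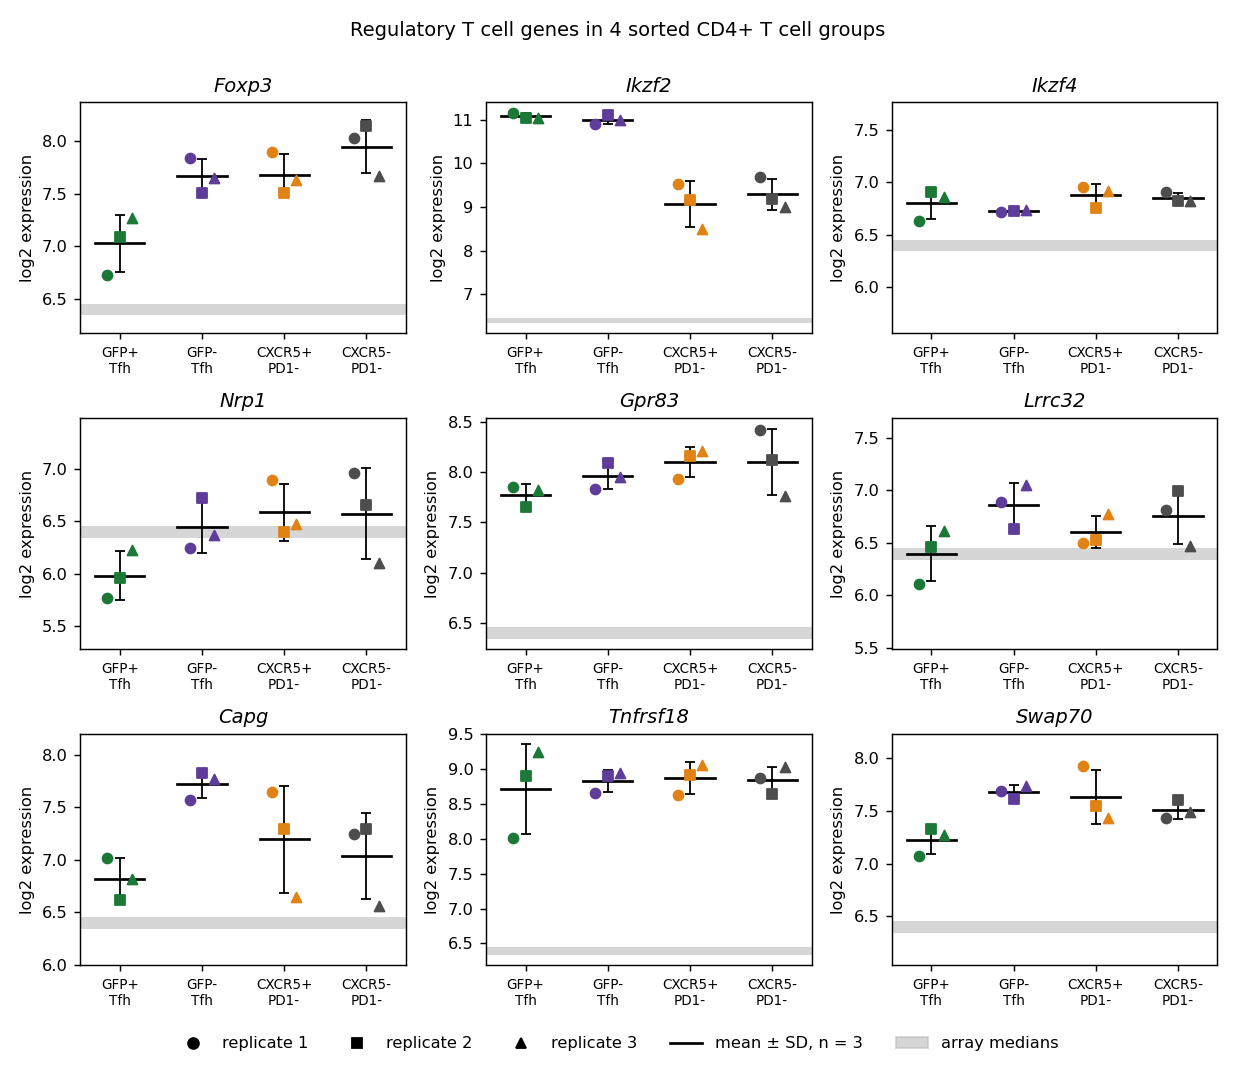
Log2 expression of the 9 genes (y axis, own scale per panel) on each array of the 4 groups (x axis). Symbols mark replicates 1 to 3, lines the mean, bars the SD (n = 3), and the grey band the range of the array medians, 6.34 to 6.45. Foxp3 and Swap70 sit lowest on the 3 GFP+ Tfh arrays, Ikzf2 is near 11 on the 6 Tfh arrays and 8.50 to 9.69 on the 6 PD1- arrays, and Ikzf4 and Tnfrsf18 differ little between groups.

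Foxp3, the forkhead factor that defines regulatory T cells, was lowest in the GFP+ Tfh cells. Its log2 expression was 6.73, 7.09 and 7.27 in GFP+ Tfh and 7.84, 7.51 and 7.65 in GFP- Tfh, with 7.89, 7.51 and 7.63 in CXCR5+PD1- cells, and 8.03, 8.15 and 7.67 in CXCR5-PD1- cells. All 3 GFP+ arrays lay below the other 9 arrays, and the 3 GFP- groups overlapped one another. Of all genes tested, 2.04% lay below the other 9 arrays in this way, and of the 9 genes Foxp3 and Swap70 did. Every array had Foxp3 above its own median of all probe sets, which was 6.34 to 6.45.

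Against CXCR5-PD1- cells, Foxp3 fell by 0.92 ± 0.18 in GFP+ Tfh, which is 1.89-fold (adjusted p = 0.0098). The same-numbered pairs differed by -1.30, -1.06 and -0.40. As the groups do not overlap, any pairing of these arrays reads lower. That call was lost with 1 weight per group, which allows for the wider GFP+ spread (adjusted p = 0.05415), and with the 2 groups fitted alone (adjusted p = 0.0766). It held in the other 22 of 24 alternatives. Against CXCR5+PD1- cells the difference was -0.65 ± 0.18, just outside the threshold (adjusted p = 0.0551, and past it in 4 of 24 alternatives, with a range of 0.0273 to 0.191). Leaving out GFP+ Tfh replicate 3 gave 0.0273 and leaving out CXCR5-PD1- replicate 3 gave 0.0490 as limma's adjusted p. In bulk RNA, fewer Foxp3+ cells in a gate and less Foxp3 RNA per cell cannot be told apart.

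Between the Tfh gates the difference in Foxp3 was -0.64 ± 0.18 for GFP+ over GFP-, or 1.56-fold, which did not pass (adjusted p = 0.416). The same-numbered pairs differed by -1.11, -0.42 and -0.38, so replicate 1 held the widest gap. Of 24 alternatives 0 called it, with adjusted p between 0.0907 and 0.9999 in limma. GFP- Tfh and CXCR5+PD1- cells had nearly the same Foxp3 level, 7.66 ± 0.17 and 7.68 ± 0.20, with a difference of -0.01 ± 0.18. GFP- Tfh over CXCR5-PD1- cells gave -0.28 ± 0.18 (adjusted p = 0.630) and CXCR5+PD1- over CXCR5-PD1- cells -0.27 ± 0.18 (adjusted p = 1.0). The order of levels was therefore GFP+ Tfh lowest and CXCR5-PD1- highest, and no pair of neighbours in it differed past the threshold.

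Foxp3 lies on the X chromosome at 7579676 to 7595243 (GRCm38.p6). The 2 sequences that follow are RefSeq's windows around the gene starts (250 bases before to 50 after, GRCm38.p6) of Foxp3 and Swap70, the members whose GFP+ arrays all lay lowest. Capitals mark matches, on either strand, to GGAAA, the core of the NFAT site, or to GTAAACA, a forkhead site.
Foxp3, chrX:7579426-7579725, plus strand: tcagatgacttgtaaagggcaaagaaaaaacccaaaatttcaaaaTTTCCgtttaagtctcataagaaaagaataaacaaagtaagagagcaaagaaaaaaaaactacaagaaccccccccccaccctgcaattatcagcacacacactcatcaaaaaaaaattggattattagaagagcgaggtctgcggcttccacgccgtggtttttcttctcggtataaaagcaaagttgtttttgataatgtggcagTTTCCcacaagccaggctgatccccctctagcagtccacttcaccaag
Swap70, chr7:110221453-110221752, plus strand: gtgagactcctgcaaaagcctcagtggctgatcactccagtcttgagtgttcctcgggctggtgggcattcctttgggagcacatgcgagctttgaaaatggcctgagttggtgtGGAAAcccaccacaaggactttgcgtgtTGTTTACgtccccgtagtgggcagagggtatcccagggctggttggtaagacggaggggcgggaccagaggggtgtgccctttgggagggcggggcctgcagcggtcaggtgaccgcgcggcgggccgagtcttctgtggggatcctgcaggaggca
GGAAA occurs 2 times in the Foxp3 window and 1 time in the Swap70 window, and 61.3% of 32851 RefSeq windows of this length hold it. GTAAACA occurs 1 time in the Swap70 window and in 3.65% of all windows. TGANTCA, an AP-1 site, and TTCNNNGAA, a STAT site, have 0 matches in both printed windows and occur in 7.81% and 8.3% of all windows; no overlap arises among the marked matches. A match is a run of letters, not a measured site. RefSeq windows were found for 6 of the 9 members, and a further Foxp3 start, with its window at chrX:7580233-7580532, is not shown; that window holds 1 GGAAA and 1 TTCNNNGAA match, which overlap.

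Ikzf2 was high in both Tfh gates. It encodes Helios, an Ikaros family zinc finger protein that marks many thymus-derived regulatory T cells and is also made by activated helper T cells. Its log2 expression was 11.16, 11.05 and 11.05 in GFP+ Tfh and 10.91, 11.11 and 10.99 in GFP- Tfh, against 9.53, 9.17 and 8.50 in CXCR5+PD1- cells and 9.69, 9.19 and 8.99 in CXCR5-PD1- cells. The 6 Tfh arrays all lay above the 6 PD1- arrays, which 3.49% of genes tested did and which, of the 9 genes, Ikzf2 alone did.

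Ikzf2 rose in both Tfh gates against both PD1- gates. GFP+ Tfh were 2.02 ± 0.24 above CXCR5+PD1- cells (4.06-fold, adjusted p = 0.000403) and 1.80 ± 0.24 above CXCR5-PD1- cells (adjusted p = 0.000844). GFP- Tfh were 1.94 ± 0.24 above CXCR5+PD1- cells (adjusted p = 0.000826) and 1.71 ± 0.24 above CXCR5-PD1- cells (adjusted p = 0.00172). All 4 calls held in each of 24 alternatives, with adjusted p no higher than 0.0194. The Tfh gates themselves differed by 0.08 ± 0.24 (GFP+ over GFP-, adjusted p = 0.951), and the PD1- gates by -0.22 ± 0.24. These comparisons share arrays, so their sizes are not independent.

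**Figure D2:**
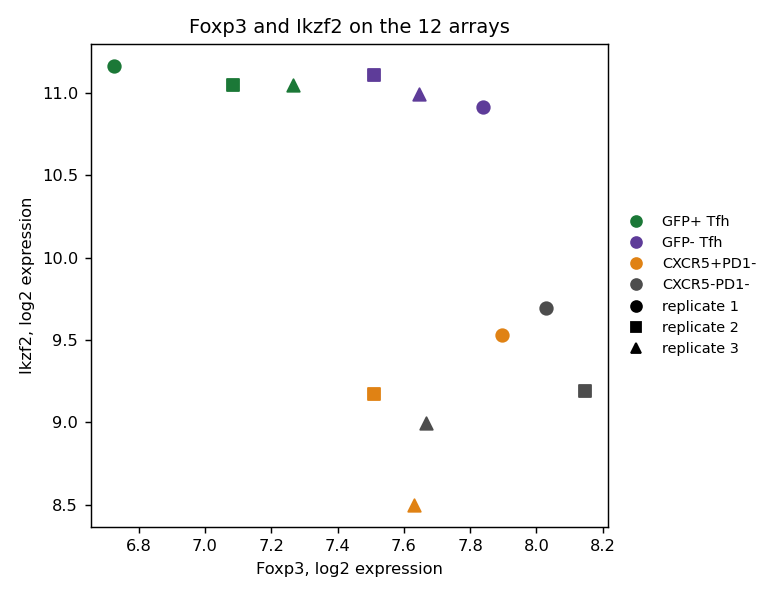
Log2 expression of Foxp3 (x axis) and Ikzf2 (y axis) on the 12 arrays, coloured by group, with symbols for replicates 1 to 3. The Tfh arrays form a band at Ikzf2 of 10.91 to 11.16 along which the GFP+ arrays take the low Foxp3 end, at 6.73 to 7.27, and the PD1- arrays lie lower in Ikzf2 with Foxp3 at 7.51 to 8.15.

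The genes whose log2 pattern was most like that of Ikzf2 over the 12 arrays were Ctla4 (Pearson r = 0.981), AI504432 (0.980), S100a11 (0.978), Sec14l1 (0.977) and Tigit (0.977). Ctla4 and Tigit encode inhibitory receptors found on regulatory and on activated T cells. Ctla4 averaged 12.11 ± 0.10 in GFP+ Tfh and 12.08 ± 0.08 in GFP- Tfh, against 11.04 ± 0.28 in CXCR5+PD1- and 11.04 ± 0.22 in CXCR5-PD1- cells. Those correlations describe Tfh and PD1- arrays standing apart as clusters; over deviations from the group means, r with Ikzf2 was 0.803 for Ctla4 and 0.739 for Tigit. Foxp3 and Ikzf2 had an r of -0.55 over the 12 arrays and of 0.24 over deviations from the group means.

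The genes most like Foxp3 were Lrp6 (r = 0.896), Dhx37 (0.881), Nfkbia (0.862), Trio (0.860) and Eomes (0.859). Over deviations from the group means, r with Foxp3 was 0.590, 0.912, 0.422, 0.87 and 0.780 in that order. Group means of Lrp6 spanned only 8.25 in GFP+ Tfh to 8.40 in CXCR5-PD1- cells. Nfkbia, which encodes an inhibitor of NF-kappaB, averaged 9.53 ± 0.13 in GFP+ Tfh and 9.75 ± 0.07 in GFP- Tfh, with 9.84 ± 0.06 in CXCR5+PD1- and 9.99 ± 0.06 in CXCR5-PD1- cells, the same order as Foxp3. Eomes, a transcription factor of cytotoxic T cells, averaged 5.97 ± 0.20, 6.57 ± 0.13, 6.50 ± 0.31 and 6.47 ± 0.10 in those groups. These Eomes means lay near or below the array medians, which were 6.34 to 6.45. Among 11239 other genes ranked by r with Foxp3, Nrp1 came at rank 28, Lrrc32 at 75, Swap70 at 105, Gpr83 at 889, Ikzf4 at 2118, Capg at 2137, Tnfrsf18 at 3353 and Ikzf2 at 10601. Arrays share groups and replicates, so these values describe likeness within 12 arrays and carry no test.

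Ikzf4 encodes Eos, a relative of Helios that works with Foxp3 as a corepressor. Its log2 expression was 6.63, 6.90 and 6.86 in GFP+ Tfh and 6.71, 6.73 and 6.73 in GFP- Tfh, with 6.95, 6.75 and 6.91 in CXCR5+PD1- cells, and 6.90, 6.82 and 6.82 in CXCR5-PD1- cells. It did not pass in any comparison, with differences from -0.15 ± 0.11 (GFP- Tfh over CXCR5+PD1-) to 0.07 ± 0.11 (GFP+ over GFP- Tfh). All its values lay close above the array medians.

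Of the Ikaros family members fixed for comparison, Ikzf3, which encodes Aiolos, was also higher in the Tfh gates. Ikzf3 averaged 10.48 ± 0.26 in GFP+ Tfh and 9.96 ± 0.15 in GFP- Tfh, against 8.89 ± 0.26 in CXCR5-PD1- cells, and rose by 1.59 ± 0.17 and 1.08 ± 0.17 over the last (adjusted p = 0.000169 and 0.00363). Ikzf5 fell by 0.54 ± 0.14 in GFP+ Tfh over CXCR5-PD1- cells (adjusted p = 0.0483). Foxp1, a forkhead relative of Foxp3 that maintains quiescence, fell by 0.61 ± 0.11 in GFP+ Tfh and fell by 0.77 ± 0.11 in GFP- Tfh over CXCR5-PD1- cells (adjusted p = 0.00773 and 0.00237).

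The surface receptors Nrp1, Gpr83, Lrrc32 and Tnfrsf18 passed in none of the 6 comparisons, nor under any alternative. Nrp1 encodes neuropilin 1, a receptor for semaphorins carried by thymus-derived regulatory T cells. Its log2 expression was 5.77, 5.96 and 6.23 in GFP+ Tfh and 6.25, 6.72 and 6.37 in GFP- Tfh, with 6.90, 6.39 and 6.47 in CXCR5+PD1- cells, and 6.96, 6.66 and 6.10 in CXCR5-PD1- cells. It lay above the array median on 0 of 3 GFP+ arrays and on 5 of 12 arrays in all. GFP+ over GFP- Tfh gave -0.46 ± 0.23 (adjusted p = 0.683), with no overlap between the 2 groups.

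Lrrc32 encodes GARP, which holds latent TGF-beta on the surface of activated regulatory T cells. Its values were 6.10, 6.46 and 6.61 in GFP+ Tfh and 6.89, 6.63 and 7.05 in GFP- Tfh, with 6.50, 6.52 and 6.78 in CXCR5+PD1- cells and 6.81, 6.99 and 6.46 in CXCR5-PD1- cells. The GFP+ arrays lay below the GFP- arrays by a narrow margin, with a difference of -0.46 ± 0.18 (adjusted p = 0.591). Tgfb1, the ligand that GARP holds, differed by -0.20 ± 0.19 between the Tfh gates (adjusted p = 0.843).

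Gpr83, a G protein-coupled receptor gene enriched in regulatory T cells, did not pass in any comparison. It stood at 7.85, 7.65 and 7.82 in GFP+ Tfh and 7.83, 8.09 and 7.96 in GFP- Tfh, with 7.93, 8.16 and 8.21 in CXCR5+PD1- cells and 8.42, 8.12 and 7.76 in CXCR5-PD1- cells. The difference of GFP+ over GFP- Tfh was -0.19 ± 0.16 (adjusted p = 0.821). Gpr83 in GFP+ Tfh differed by -0.33 ± 0.16 from CXCR5+PD1- cells, without overlap (adjusted p = 0.323), and by -0.33 ± 0.16 from CXCR5-PD1- cells, with overlap (adjusted p = 0.307). Tnfrsf18 encodes GITR, a costimulatory receptor high on regulatory T cells and induced on activated ones. Its group means were 8.71 ± 0.64, 8.83 ± 0.16, 8.87 ± 0.22 and 8.84 ± 0.19 in GFP+ Tfh, GFP- Tfh, CXCR5+PD1- and CXCR5-PD1- cells, and all 6 differences lay within 0.16 of 0. The GFP+ arrays were widely spread for it, at 8.005, 8.89 and 9.24.

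Capg and Swap70 encode proteins of the actin cytoskeleton, an actin filament capper and an actin-binding regulator of Rac signalling first known from B cells. Capg was highest in GFP- Tfh. Its log2 expression was 7.02, 6.62 and 6.82 in GFP+ Tfh, against 7.57, 7.83 and 7.77 in GFP- Tfh, with 7.64, 7.29 and 6.65 in CXCR5+PD1- cells and 7.24, 7.29 and 6.56 in CXCR5-PD1- cells. The GFP+ and GFP- Tfh arrays did not overlap, and the difference of -0.90 ± 0.25 was the lowest of the 9 genes in that comparison, though it did not pass (adjusted p = 0.416). GFP- Tfh over CXCR5-PD1- cells gave 0.69 ± 0.25 (adjusted p = 0.214), again without overlap.

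Swap70 stood at 7.07, 7.33 and 7.27 in GFP+ Tfh and 7.69, 7.61 and 7.74 in GFP- Tfh, with 7.93, 7.55 and 7.44 in CXCR5+PD1- cells, and 7.44, 7.60 and 7.49 in CXCR5-PD1- cells. The GFP+ arrays lay below all others. Its differences were -0.46 ± 0.14 over GFP- Tfh (adjusted p = 0.441), -0.41 ± 0.14 over CXCR5+PD1- cells (adjusted p = 0.117) and -0.29 ± 0.14 over CXCR5-PD1- cells (adjusted p = 0.297).

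In the PD1- gates, replicate 3, the female one, read lower than the other replicates for some of the 9 genes. Capg on replicate 3 was 0.82 below the mean of replicates 1 and 2 in CXCR5+PD1- cells and 0.71 below it in CXCR5-PD1- cells. Ikzf2 was 0.85 and 0.44 below it in the same groups. In the Tfh gates these gaps were no more than 0.07 for either gene. Foxp3 on replicate 3 was 0.07 and 0.42 below that mean in CXCR5+PD1- and CXCR5-PD1- cells. In GFP+ Tfh it was 0.36 above and in GFP- Tfh 0.03 below. In CXCR5-PD1- cells Nrp1, Gpr83 and Lrrc32 were 0.71, 0.51 and 0.44 below, and Tnfrsf18 was 0.27 above. In CXCR5+PD1- cells Gpr83, Lrrc32 and Tnfrsf18 were 0.16, 0.26 and 0.29 above. Il21 on replicate 3 was 1.64 and 1.88 below in the PD1- gates and 0.53 and 0.59 below in GFP+ and GFP- Tfh. The part of sex or of replicate in these gaps was not tested, as each group has 1 female array.

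Counted together, 0 of the 9 genes passed in GFP+ over GFP- Tfh, where 0.0445% of all genes tested did (5 genes, all lower; 237 genes without GFP+ Tfh replicate 1 and 3 without GFP- Tfh replicate 1, with 0 of the 9 in either). At an unadjusted limma p under 0.05 the count was 4 of 9, namely Foxp3, Lrrc32, Capg and Swap70, against 7.37% of all genes. In 5 of 9, those 4 and Nrp1, all GFP+ arrays lay below all GFP- arrays, against 5.65% of genes tested, and 7 of 9 differences were below 0, against 53.7%. The median difference was -0.46 for the 9 genes and -0.02 for all genes tested. The 9 genes were chosen with earlier results of these data known, so these counts are a description and not a test.

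In GFP+ Tfh over CXCR5+PD1- cells 1 of 9 genes was called, Ikzf2 (5.89% of all genes), and 4 of 9 lay lower without overlap (11.3%). In GFP+ Tfh over CXCR5-PD1- cells 2 of 9 were called, Ikzf2 higher and Foxp3 lower (6.2%), and 2 of 9 lay lower without overlap (10.8%). GFP- Tfh over CXCR5+PD1- cells and over CXCR5-PD1- cells each called 1 of 9, Ikzf2 (3.75% and 3.82%), and in the second Ikzf2, Capg and Swap70 lay higher without overlap (11.4%). CXCR5+PD1- over CXCR5-PD1- cells called 0 of 9 by limma (0.0% of all genes), and at an unadjusted p under 0.05 also 0 of 9 (1.22%). By a moderated F test over the 4 groups, Foxp3 (adjusted p = 0.0360) and Ikzf2 (adjusted p = 0.000263) differed somewhere, as did 5.95% of genes tested, and the other 7 did not pass.

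**Figure D3:**
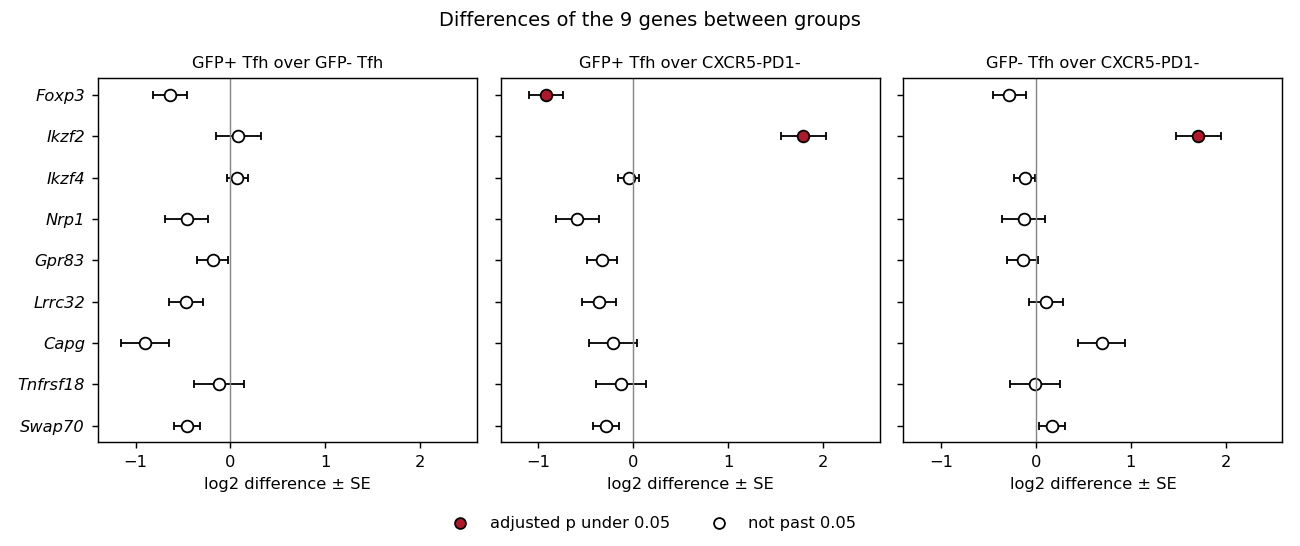
Log2 difference ± SE (x axis) of the 9 genes (y axis) in GFP+ over GFP- Tfh, GFP+ Tfh over CXCR5-PD1- and GFP- Tfh over CXCR5-PD1- cells, with filled circles for an adjusted p under 0.05 in limma. Ikzf2 stands at 1.80 and 1.71 against CXCR5-PD1- cells and at 0.08 between the Tfh gates, while Foxp3 is filled only at -0.92.

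Other genes of the regulatory T cell signature differed among themselves. A list of 23, from which 22 were on the array and 19 were tested, had 0 higher (0.0% of all genes) and 1 lower (0.0445%) in GFP+ over GFP- Tfh, with a median difference of -0.26. The 1 gene was Il2ra, the interleukin 2 receptor alpha chain by which regulatory T cells take up interleukin 2. Il2ra was at 5.84, 6.53 and 5.13 in GFP+ Tfh, against 8.65, 8.65 and 8.35 in GFP- Tfh. It lay above the array median on 1 of 3 GFP+ Tfh arrays and on 3 of 3 GFP- Tfh arrays. Between these gates Il2ra fell by 2.72 ± 0.28 (adjusted p = 0.00451), a size that rests on low GFP+ values. That call was lost with the 2 groups fitted alone (adjusted p = 0.258) and on the male arrays alone (adjusted p = 0.101). Itgae (-1.34 ± 0.28), Ecm1 (-0.72 ± 0.17) and Penk (-1.50 ± 0.36) came next by p, none past the threshold. Each lay lower without overlap between the groups, as did 5.65% of all genes. At an unadjusted limma p under 0.05 the list had 9 of 19, against 7.37% of all genes.

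In GFP- Tfh over CXCR5-PD1- cells, 8 of the 19 rose (2.22% of all genes) and 1 fell (1.6%), with a median of 0.95. Those with the smallest p were Icos (1.32 ± 0.15), a costimulatory receptor, the zinc finger gene Plagl1 (1.27 ± 0.17), Nt5e (1.96 ± 0.27), which encodes the adenosine-forming enzyme CD73, and Ecm1, which fell by 1.30 ± 0.17. In GFP+ Tfh over CXCR5-PD1- cells 5 of 19 rose (2.45% of all genes) and 2, Il2ra and Ecm1, fell (3.75%). Icos, Ctla4, Tigit, Nt5e and Plagl1 rose in both, and activated Tfh cells are known to carry Icos, Ctla4 and Tigit too. Penk, the proenkephalin gene, rose by 2.40 ± 0.36 in GFP- Tfh over CXCR5-PD1- cells (adjusted p = 0.00307). These comparisons share the GFP- Tfh or CXCR5-PD1- arrays, and the list was chosen with earlier results of these data known.

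**Figure D4:**
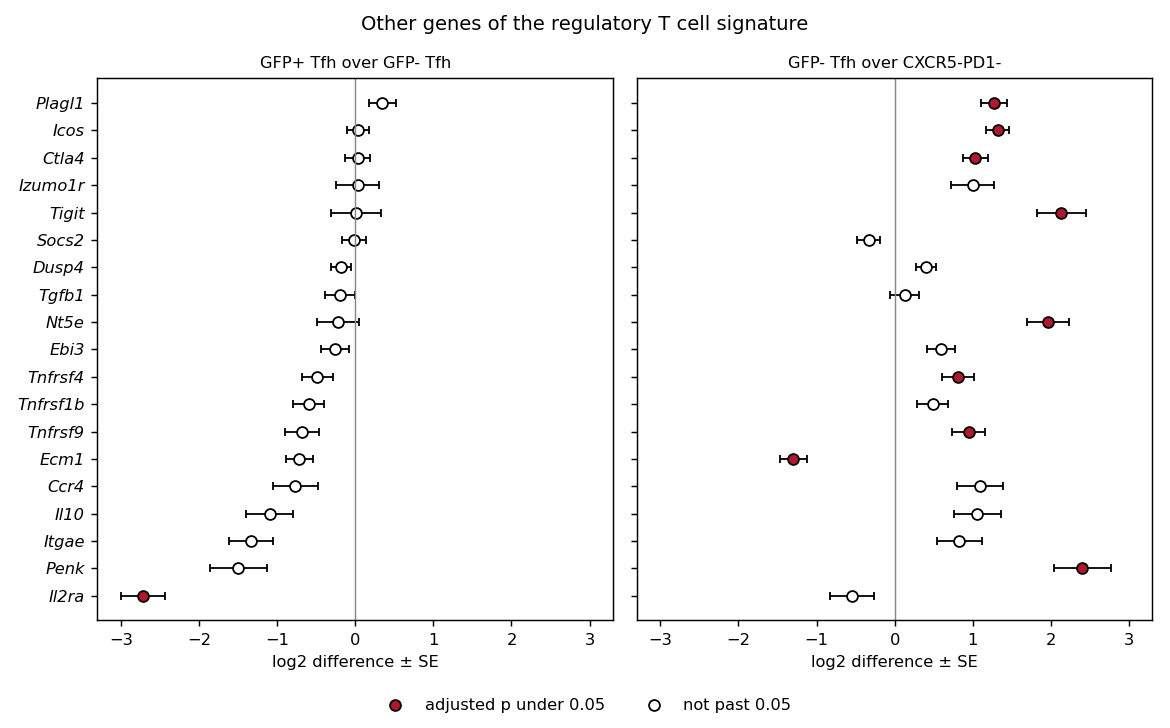
Log2 difference ± SE (x axis) of 19 tested genes of the regulatory T cell signature other than the 9 (y axis, sorted by the left panel) in GFP+ over GFP- Tfh and in GFP- Tfh over CXCR5-PD1- cells, which share the GFP- Tfh arrays. Filled circles mark an adjusted p under 0.05 in limma. On the left Il2ra alone is filled, at -2.72, and on the right 9 genes are.

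Of 23 tested genes that act on Foxp3 transcription, 0 passed in GFP+ over GFP- Tfh, with 2 at an unadjusted limma p under 0.05 (7.37% of all genes) and a median of -0.02. Those 2 were the nuclear receptors Nr4a2 (-0.60 ± 0.21) and Nr4a1 (-0.42 ± 0.16), which are induced by T cell receptor signals. Against CXCR5-PD1- cells, 4 rose and 3 fell in GFP+ Tfh (2.45% and 3.75% of all genes), and 3 rose and 3 fell in GFP- Tfh (2.22% and 1.6%). Bach2, a repressor that favours regulatory T cell formation, fell by 1.78 ± 0.19 in GFP+ Tfh and fell by 1.43 ± 0.19 in GFP- Tfh (adjusted p = 0.000162 and 0.00118). Nfatc1, a calcineurin-dependent activator, rose by 1.39 ± 0.16 and 1.16 ± 0.16 in the same gates (adjusted p = 0.000282 and 0.00147).

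Of 10 tested genes known to be low in regulatory T cells, 6 fell and 0 rose in GFP+ Tfh over CXCR5-PD1- cells, where 3.75% of all genes fell and 2.45% rose. The same counts held for GFP- Tfh, where 1.6% of all genes fell and 2.22% rose, the 6 being Satb1, Il7r, Lef1, Dapl1, Igfbp4 and Actn1 in both. These genes mark naive and recirculating T cells as well. The median over the 11 on the array still lay 0.84 to 1.87 above the array median in GFP+ Tfh and 2.84 to 2.94 above it in GFP- Tfh, against 2.76 to 3.10 above it in CXCR5-PD1- cells. Lef1, a partner of T cell factor 1, fell by 1.44 ± 0.18 in GFP+ Tfh and fell by 1.27 ± 0.18 in GFP- Tfh (adjusted p = 0.000633 and 0.00210). In GFP+ over GFP- Tfh 0 passed by limma, with 2 at an unadjusted p under 0.05 (7.37% of all genes), among them the interleukin 7 receptor gene Il7r at -1.67 ± 0.30.

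Of the T follicular regulatory cell list, 9 of 12 genes were tested, and 6 rose in each Tfh gate over CXCR5-PD1- cells: Il1r2, Ctla4, Icos, Bcl6, Cxcr5 and Pdcd1. Of all genes 2.45% rose in GFP+ Tfh and 2.22% in GFP- Tfh in these comparisons. The untested Il1rn, Fgl2 and Nrn1 lay below the array median on all 12 arrays. Prdm1, Gzmb and Il10 were tested and passed in no comparison. Cxcr5 and Pdcd1 belong to the gate, and Bcl6 and Icos mark Tfh cells equally. Il1r2, which encodes a decoy receptor for interleukin 1, rose by 3.08 ± 0.37 in GFP+ Tfh and by 3.01 ± 0.37 in GFP- Tfh (adjusted p = 0.000459 and 0.000882). Between the Tfh gates 0 of 9 passed, with 2 at an unadjusted limma p under 0.05 (7.37% of all genes) and a median of 0.03. Il10, the cytokine of suppressive T cells, was at 6.80 ± 0.63 in GFP+ Tfh and 7.89 ± 0.41 in GFP- Tfh, a difference of -1.09 ± 0.30 (adjusted p = 0.416), and Cxcr5 differed by 0.74 ± 0.26 (adjusted p = 0.561).

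Capg, Swap70, Nrp1 and Lrrc32 are also made by cells outside the T lineage, so markers of those cells were read on the same arrays. The median of 20 myeloid and dendritic cell markers lay 0.49 to 0.37 below the array median on GFP+ Tfh arrays and 0.58 to 0.47 below it on GFP- Tfh arrays, with Csf1r, Itgam, Itgax and 9 further genes below it on all 12 arrays. Cd68, Tyrobp and Cst3 of the same list lay above the array median on all 12 arrays. The median of 9 B cell markers lay 1.39 to 1.02 below it in GFP+ Tfh and 1.31 to 1.11 below it in GFP- Tfh, and that of 10 stromal and endothelial markers 0.65 to 0.33 and 0.54 to 0.49 below it. Between the Tfh gates 0 of the 7, 3 and 4 tested markers of these lists passed by limma, with 1, 1 and 0 at an unadjusted p under 0.05 (7.37% of all genes). For 10 germinal centre B and plasma cell markers the median lay 0.51 to 0.35 below in GFP+ Tfh and 0.75 to 0.21 below in GFP- Tfh, for 10 epithelial markers 0.79 to 0.47 and 0.85 to 0.81 below, and of their 5 and 3 tested genes 0 passed, with 0 and 1 at an unadjusted p under 0.05. Also above the array median on all 12 arrays were Col1a1, Col1a2 and Pecam1 of the stromal and endothelial list. Fas, S1pr2 and Xbp1 of the germinal centre list and Krt8 and Lgals4 of the epithelial list were so too. In the comparison where Foxp3 fell, GFP+ Tfh over CXCR5-PD1- cells, the B cell factor gene Pax5 rose by 0.47 ± 0.10 (adjusted p = 0.0171). In GFP+ Tfh over CXCR5+PD1- cells the macrophage lysozyme gene Lyz2 rose by 1.48 ± 0.38 (adjusted p = 0.0447) and the epithelial galectin gene Lgals4 fell by 0.56 ± 0.14 (adjusted p = 0.0337). Their part in the values of the 9 genes was not tested.

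For 10 markers of CD8, NK and gamma delta T cells the median lay 0.33 to 0.17 below the array median in GFP+ Tfh, against 0.10 below to 0.04 above it in GFP- Tfh, so like Foxp3 it read lower in GFP+ Tfh. In CXCR5+PD1- cells that median lay 0.15 below to 0.09 above the array median, and in CXCR5-PD1- cells 0.02 below to 0.24 above. Prf1 lay above the array median on all 12 arrays. Eomes, named above as like Foxp3, belongs to this list. Of its 7 tested genes 0 passed between the Tfh gates, with 2 at an unadjusted limma p under 0.05 (7.37% of all genes) and a median difference of -0.12. Prf1 fell in GFP+ Tfh over CXCR5-PD1- cells, as did 3.75% of all genes. Cd8b1 fell in GFP- Tfh over CXCR5-PD1- cells, as did 1.6% of all genes. The part of these cells in the Foxp3 values was not tested.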

How the data were processed

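The deposited values are log2 expression per probe set, and the submitters' processing notes name RMA and oligo as the authors' tools; versions and genome build are not given in the sources used here. RMA corrects background and quantile-normalizes the arrays together, so a change shared by most genes would not be seen. Precision is limited by having 3 arrays a group. Of 34760 probe sets, 21640 had 1 gene symbol, 1321 several and 11799 none. Where a gene had more than 1 probe set (954 genes), the one with the highest mean was used. Genes were tested where 3 or more arrays had them above that array's median over all probe sets. Groups followed the sample titles. One model of 4 group means over 12 arrays was fitted with limma 3.58.1 in R 4.3.3 (lmFit, eBayes, checked on simulated data), with Benjamini-Hochberg adjustment over 11240 genes and a threshold of 0.05.

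Alternatives changed the filter, probe set choice, variance model, array weights, centring, blocks, groups fitted and arrays included. Deviations from the group means correlated above 0.1 in all 3 same-numbered pairs of CXCR5+PD1- and CXCR5-PD1- arrays (r = 0.231, 0.210 and 0.353). In each other comparison at least 1 pair fell below 0.1, with single pairs up to 0.283. The 9 genes and the gene lists were chosen with earlier results of these data known. Genes named beyond the 9 are the sort genes, Xist, up to 4 list members with the smallest p per comparison and the 5 genes most like Foxp3 or Ikzf2; further list members that passed, and Tgfb1, were named after their values were seen.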

Additional observations from a re-analysis of the deposited data

How the results depend on the processing

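Of 1278 differences of the 9 genes under alternatives, 1272 stayed on their side of the threshold, 4 newly passed it and 2 no longer did; all 6 were Foxp3, and 47 differences called in neither setting changed sign. With the 70th percentile filter and with 1 weight per array, 2 of the 9 genes instead of 1 were called in GFP+ Tfh over CXCR5+PD1- cells. With 1 weight per group and with 2 groups alone, 1 instead of 2 was called in GFP+ Tfh over CXCR5-PD1- cells. Genes called over the whole array numbered 5, 662, 697, 422 and 429 in GFP+ over GFP- Tfh, GFP+ Tfh over CXCR5+PD1-, GFP+ Tfh over CXCR5-PD1-, GFP- Tfh over CXCR5+PD1- and GFP- Tfh over CXCR5-PD1- cells. In the same order they numbered 95, 1437, 1411, 1042 and 912 with 1 weight per array, 3, 331, 314, 843 and 791 with 1 weight per group, 0, 234, 255, 776 and 665 with 2 groups alone, and 0, 388, 392, 266 and 266 on the male arrays. Leaving out 1 array at a time gave 3 to 237, 337 to 1005, 348 to 1147, 214 to 642 and 228 to 689 genes, and 0 to 0, 1 to 2, 2 to 2, 1 to 1 and 1 to 1 of the 9. The highest counts came without GFP+ Tfh replicate 1 in the GFP+ comparisons and without GFP+ Tfh replicate 3 in the others. The cause was not tested. Median centring turned the split in GFP+ Tfh over CXCR5+PD1- cells to 312 higher and 267 lower, against 290 and 372; cyclic loess gave 351 and 338, the male arrays 236 and 152, and leaving out GFP+ Tfh replicate 3 450 and 353, while leaving out GFP+ Tfh replicate 1 gave 303 and 702. In GFP+ Tfh over CXCR5-PD1- cells the split was 275 higher and 422 lower, against 228 and 164 on the male arrays, 411 and 384 without GFP+ Tfh replicate 3 and 332 and 815 without GFP+ Tfh replicate 1. With the replicate number as a block the counts were 6, 727, 814, 498 and 544, and 0 in CXCR5+PD1- over CXCR5-PD1- cells, where the pairing held; the block changed no call of the 9 genes.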
